A study of Mus musculus with 2 samples.

Results

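The genes described here were 10 of the 27998 genes counted in each library, all of the Notch pathway. They were the receptor genes Notch1, Notch2 and Notch3, the ligand genes Jag1 and Jag2, the ligand relative Dlk1, and the target genes Hes1, Hey1, Heyl and Nrarp. They were taken by symbol from the deposited gene lists, and each symbol matched 1 row. The genes were chosen by levels measured earlier in these same cells, among them a lower Hes1 level in alveolar type 2-like cells of the navitoclax library. The levels are therefore descriptions, and no test supports the choice.

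Single-cell RNA sequencing had been run on lungs of C57Bl6 mice that received bleomycin, a drug that injures the lung and causes fibrosis, on day 1. Both groups carried this injury, and no uninjured group is described here. The vehicle group received the carrier and the navitoclax group received navitoclax (ABT-263), an inhibitor of anti-apoptotic BCL-2 family proteins used to kill senescent cells, from day 15 to day 20. Lungs were collected 21 days after bleomycin, and epithelial and stromal cells were sorted and mixed in equal parts, which set the proportion of the 2 compartments by hand. The sources used here do not give the age or the number of mice behind a library. Each group had 1 library, which allows no test between the groups, and every interval below is an exact 95% interval that covers counting error only.

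Notch receptors are cut after binding a ligand on a neighbouring cell, and the freed intracellular domain joins the DNA-binding protein RBPJ to switch on target genes. Hes1, Hey1 and Heyl encode basic helix-loop-helix repressors, and Nrarp encodes a feedback inhibitor of the receptor's intracellular domain. In the airway the pathway is known for steering progenitors toward secretory rather than ciliated fates, and in vessel walls for the identity of smooth muscle cells and pericytes. Hes1 is also transcribed in response to other signals, so its level alone does not measure Notch activity.

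After filtering, 7170 vehicle and 6218 navitoclax cells were grouped into 37 clusters, most of which were given names ending in -like from marker genes. Alveolar type 2-like (AT2-like) cells, the surfactant-making cells of the alveolus, numbered 2585 vehicle and 2239 navitoclax cells, and pooled fibroblasts numbered 3568 and 2975. There were 7 classes with at least 50 cells in each library. They included AT2-like, transitional-like (196 and 282 cells), ciliated-like (337 and 371) and club or secretory-like cells (131 and 136). The fibroblast classes among them were alveolar fibroblast-like (2801 and 2260), adventitial fibroblast-like (523 and 454) and peribronchial fibroblast-like cells (226 and 247). Transitional-like is named for a state between the alveolar types, and its cluster scored 0.691 for transitional and 0.526 for AT2 markers. Another 3 classes had 30 or more cells in each library, namely alveolar type 1-like (AT1-like, 138 and 49), smooth muscle-like (45 and 39) and mesothelial-like cells (61 and 31). The AT1-like cells lay mostly in a cluster that scored higher for transitional markers (0.633) than for AT1 markers (0.455), and the smooth muscle-like cluster also scored 0.878 for pericyte markers. Club or secretory-like cluster 12 (60 and 77 cells) scored 0.445 for club and 0.401 for ciliated markers. Cluster 13 of the same class (71 and 59 cells) scored 0.915 for club markers. The clusters left unnamed held 92 vehicle and 79 navitoclax cells. One of them (33 and 36 cells) had neuroendocrine markers that came from 5 navitoclax cells, and the other (59 and 43 cells) scored highest for AT2 markers but had a low median UMI count (0.325 of that of its libraries) and no such marker among its 10 leading genes. Endothelial-like cells numbered 9 in each library and immune-like cells 8, too few to describe. Fibrotic fibroblast-like cells, 18 and 14, were counted in the pooled fibroblasts.

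Levels are given as unique molecular identifiers (UMIs, which count captured transcripts) per 1000000 UMIs of the class, abbreviated CPM. The kit counts the 3′ end of each transcript, so no correction for gene length was made. Total UMIs per class ranged from 273927 (smooth muscle-like, vehicle) to 48174251 (AT2-like, vehicle). The keratin gene Krt8, a transitional marker, had 716 CPM with vehicle and 686 CPM with navitoclax in transitional-like cells. It was lower in AT2-like cells (176 and 171 CPM) and higher in AT1-like (755 and 892 CPM) and ciliated-like cells (1075 and 1117 CPM). The AT2 marker Sftpc had 179633 and 189207 CPM in transitional-like and 222740 and 232821 CPM in AT2-like cells. The clusters mixed the libraries unequally. Clusters 0, 4, 7 and 6 held most of the AT2-like cells of the vehicle library, and clusters 1 and 3 most of those of the navitoclax library, while alveolar fibroblast-like cluster 18 held 1119 vehicle and 89 navitoclax cells and cluster 20 held 90 and 838. Each library had 1 value, 20 barcodes occurred in both libraries, and no library could be set against a second of its group.

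Of the genes described here, Hes1 was abundant in every class and lower in the navitoclax library in most of them. It was 1.63-fold lower in AT2-like cells, a difference known when the genes were chosen, and 2.12-fold lower in pooled fibroblasts. The receptor genes Notch1 and Notch2 were spread over almost all classes and did not pass 1.5-fold in any large class with enough UMIs to compare, Notch3 and Heyl were highest in smooth muscle-like cells, and Jag1 and Jag2 were highest in ciliated-like cells. Jag1 was higher in the navitoclax library in each of the 6 large classes where it could be compared, including club or secretory-like cells, where most genes were higher. The map of levels by gene and class shows these patterns.

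**Figure D1:**
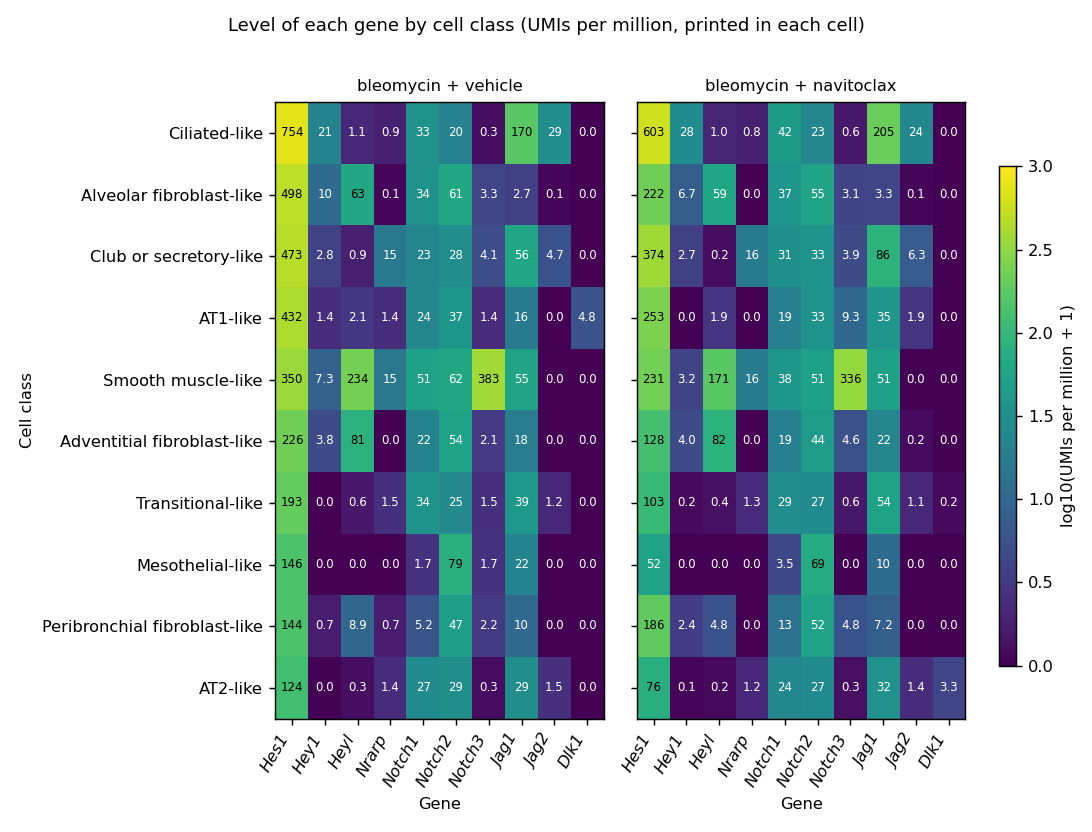
Level of each of the 10 genes (columns) in each of 10 cell classes (lines of the map) in the vehicle (left) and navitoclax (right) library, in CPM, with the value printed in each cell and colour on a log10 scale after adding 1. Hes1 is present in every class, and Notch3 reaches 383 and 336 CPM in smooth muscle-like cells but stays at or below 9.30 CPM elsewhere.

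Notch1 and Notch2 encode the receptors found in most lung cell types. Notch1 (chr2:26457903-26516663, minus strand, GRCm38, a gene of 34 exons) lay between 5.17 CPM in peribronchial fibroblast-like and 34.1 CPM in transitional-like cells of the vehicle library, among the 7 large classes. In the navitoclax library the range was 12.5 to 41.8 CPM, from the peribronchial fibroblast-like to the ciliated-like class. Mesothelial-like cells held 1 UMI of Notch1 in each library.

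Notch1 ratios between the libraries ran from 0.838 in transitional-like to 1.35 in club or secretory-like cells, over the 6 large classes with at least 50 UMIs. The second was 0.994 (0.764 to 1.30) relative to the median gene of its class, whose shift is described with Jag1. The level in AT2-like cells was 27.3 CPM (25.8 to 28.8) with vehicle and 24.1 CPM (22.8 to 25.6) with navitoclax, a ratio of 0.884 (0.816 to 0.958). Ciliated-like cells went the other way, from 32.7 to 41.8 CPM, a ratio of 1.28 (1.01 to 1.63). Both intervals leave out 1 by little, and neither ratio passed 1.5-fold. Alveolar fibroblast-like cells had 33.5 and 36.6 CPM, a ratio of 1.09 (0.980 to 1.22).

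Notch2 (chr3:98013527-98150361, plus strand, 34 exons) was higher in mesenchymal than in epithelial classes. In the vehicle library it reached 60.7 CPM in alveolar, 53.8 CPM in adventitial and 46.5 CPM in peribronchial fibroblast-like cells, and 78.8 CPM in mesothelial-like cells, from 47 UMIs. AT2-like cells had 29.1 CPM, transitional-like cells 24.7 CPM and ciliated-like cells 20.3 CPM. The navitoclax library showed the same division, with 55.3 CPM in alveolar fibroblast-like and 23.3 CPM in ciliated-like cells. The ratio was 0.899 (0.835 to 0.968) in pooled fibroblasts and 0.924 (0.855 to 0.997) in AT2-like cells, and over the 7 large classes it ran from 0.812 to 1.17.

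Notch3 encodes the receptor typical of mural cells, the smooth muscle cells and pericytes around vessels, and its level followed that pattern here. Smooth muscle-like cells had 383 CPM (314 to 464) with vehicle and 336 CPM (275 to 406) with navitoclax, from 105 and 106 UMIs. In the 7 large classes the highest level was 4.77 CPM. A Notch3 UMI was seen in 75.6% of vehicle and 76.9% of navitoclax smooth muscle-like cells, against 0.387% and 0.670% of AT2-like cells, which were sequenced more deeply (median 18116 and 19903 UMIs, against 5950 and 8192). After each cell was thinned to 2000 UMIs, which left out 5 and 2 smooth muscle-like cells, the shares were 50% and 40.5%. The ratio between the libraries was 0.876 (0.662 to 1.16) in that class, so no difference was detectable at this depth. The Notch3 gene lies at chr17:32120820-32166852 on the minus strand (GRCm38). Notch1, Notch2 and Jag2 each overlap genes annotated on the same strand, and Notch1, Notch3 and Nrarp overlap genes on the opposite strand. The sources used here do not say how the counting treated overlaps or strand, so the counts of these genes are less certain than that of Hes1. The Notch3 promoter window (250 bases before to 50 after the start, chr17:32166841-32167140, minus strand, RefSeq, GRCm38.p6) is shown because no other receptor gene here had so uneven a level. Capitals mark CACNAG, the N box bound by HES proteins, read on either strand.
Notch3: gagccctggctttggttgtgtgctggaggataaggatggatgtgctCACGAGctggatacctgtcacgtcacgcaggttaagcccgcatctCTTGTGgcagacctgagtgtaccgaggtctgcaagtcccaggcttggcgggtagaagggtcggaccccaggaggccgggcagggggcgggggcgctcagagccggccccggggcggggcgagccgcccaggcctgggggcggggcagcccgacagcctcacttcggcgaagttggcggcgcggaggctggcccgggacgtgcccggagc
The match at position -204 is also CACGAG, which counts within CACNAG, and the other lies at position -159.

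Jag1, which encodes the ligand Jagged-1, was highest in ciliated-like cells, at 170 CPM (156 to 184) with vehicle and 205 CPM (193 to 219) with navitoclax. Club or secretory-like cells followed with 56.4 and 86.0 CPM, then transitional-like cells with 39.2 and 53.9 CPM and AT2-like cells with 29.1 and 31.97 CPM. Within the club or secretory-like class, cluster 12 had 128 and 162 CPM, against 20.2 and 23.1 CPM in cluster 13. Alveolar fibroblast-like cells lay lowest, at 2.68 and 3.29 CPM. The epithelial classes thus carried most of the Jag1 signal, with smooth muscle-like cells at 54.8 and 50.7 CPM from 15 and 16 UMIs.

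The navitoclax level of Jag1 was above the vehicle level in 6 of the 6 large classes with at least 50 UMIs, and the counting interval lay above 1 in 4 of them. Peribronchial fibroblast-like cells, with 13 and 12 Jag1 UMIs, fell short of that number and had a ratio of 0.745 (0.311 to 1.77). The ratio was 1.10 (1.02 to 1.18) in AT2-like, 1.37 (1.11 to 1.70) in transitional-like and 1.21 (1.09 to 1.34) in ciliated-like cells. In club or secretory-like cells it was 1.53 (1.30 to 1.797), but 1.26 (1.05 to 1.51) within cluster 12 and 1.14 (0.775 to 1.68) within cluster 13. Within AT2-like clusters the direction was mixed. Of the 4 clusters with at least 100 cells in each library, clusters 0 and 1 had Jag1 ratios of 1.10 and 1.27, and clusters 4 and 6 had 0.967 and 0.649 (0.419 to 0.976). The club or secretory-like class is a special case, because the secretoglobin gene Scgb1a1 made up 524712 CPM of the vehicle and 385204 CPM of the navitoclax class and the median gene stood 0.44 higher on the log2 scale with navitoclax. There, 32.6% of 8250 genes passed 1.5-fold and 7608 had a ratio above 1, so the direction of Jag1 in that class says little. The genes above 1 were 5639 of 11983 in AT2-like, 4320 of 8681 in transitional-like and 5075 of 9718 in ciliated-like cells. Relative to the median gene, the Jag1 ratio in club or secretory-like cells was 1.13 (0.959 to 1.33), an interval that includes 1.

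The gene lies at chr2:137081456-137116644 on the minus strand (GRCm38) and has 26 exons. Its promoter window (chr2:137116471-137116770, minus strand, RefSeq, GRCm38.p6) is shown because Jag1 was the ligand gene with the most UMIs and the same direction in all large classes compared. Capitals mark CACGCG, a HES site variant, on either strand.
Jag1: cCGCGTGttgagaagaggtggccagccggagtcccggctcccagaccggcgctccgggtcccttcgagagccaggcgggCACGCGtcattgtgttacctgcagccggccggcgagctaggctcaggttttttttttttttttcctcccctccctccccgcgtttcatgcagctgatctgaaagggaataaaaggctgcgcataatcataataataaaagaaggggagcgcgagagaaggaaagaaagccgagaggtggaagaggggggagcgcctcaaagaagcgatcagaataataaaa
One match lies at the start of the window and the other at position -171. Over all 32851 promoter windows of this length, 9.27% hold CACGCG, 42.5% hold CACNAG and 6.47% hold CACGAG.

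Jag2, the gene of the second Jagged ligand, was found mainly in ciliated-like cells and in club or secretory-like cluster 12. In ciliated-like cells it had 28.7 CPM (23.3 to 34.8) with vehicle and 24.3 CPM (20.1 to 29.2) with navitoclax, from 100 and 117 UMIs. Club or secretory-like cells had 4.70 and 6.30 CPM, from 22 and 26 UMIs. Of these, 20 and 24 lay in cluster 12, at 12.8 CPM in each library. AT2-like cells had 1.54 and 1.42 CPM, while pooled fibroblasts held 2 and 3 UMIs. The ratio was 0.850 (0.645 to 1.12) in ciliated-like and 0.928 (0.656 to 1.31) in AT2-like cells, intervals that allow a change in either direction. Ciliated-like cells thus held the highest level of both ligand genes in both libraries. Jag2 lies at chr12:112907819-112929776 on the minus strand.

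Dlk1 encodes a ligand-like membrane protein that lacks the motif needed to activate Notch receptors. It was at 0 UMIs in both libraries in ciliated-like, club or secretory-like, all fibroblast-like, smooth muscle-like and mesothelial-like cells. For AT2-like cells, a count of 0 in the vehicle library allows a level of up to 0.0623 CPM. The navitoclax AT2-like cells held 154 UMIs, at least 52.6-fold higher than the floor of 3 counts for the vehicle library. A single navitoclax cell of cluster 3 held 152 of these UMIs among its 53573, and 3 cells had any Dlk1 UMI, so this value belongs to 1 cell and not to the class. In AT1-like cells the vehicle library held 7 Dlk1 UMIs, 6 of them in 1 cell. Dlk1 lies at chr12:109452823-109463336 on the plus strand.

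Hes1 is the best known Notch target gene and encodes a repressor that holds back differentiation. It occupies chr16:30064384-30067796 on the plus strand (GRCm38, 3413 bases, 4 exons), and no other annotated gene overlaps it. In the vehicle library it was highest in ciliated-like cells (754 CPM, 725 to 783), followed by alveolar fibroblast-like cells (498 CPM, 489 to 508), club or secretory-like cells (473 CPM, 454 to 493) and AT1-like cells (432 CPM, 398 to 467). The interval of each of these last 3 overlapped that of the next. Smooth muscle-like cells had 350 CPM (284 to 428), adventitial fibroblast-like cells 226 CPM (212 to 240) and transitional-like cells 193 CPM (179 to 209). Mesothelial-like (146 CPM), peribronchial fibroblast-like (144 CPM) and AT2-like cells (124 CPM) were lowest, with overlapping intervals between neighbours.

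The order differed in the navitoclax library. Ciliated-like cells again came first at 603 CPM (582 to 626), and club or secretory-like cells second at 374 CPM (356 to 394). Alveolar fibroblast-like cells, second with vehicle, moved down to the fifth place at 222 CPM (215 to 229), with an interval overlapping that of smooth muscle-like cells (231 CPM). Peribronchial fibroblast-like cells moved up to the sixth place at 186 CPM (166 to 208), above adventitial fibroblast-like cells at 128 CPM (118 to 139). AT2-like cells at 76.0 CPM (73.6 to 78.6) and mesothelial-like cells at 51.8 CPM (29.0 to 85.5) were lowest, and these 2 intervals overlapped. The bar plot of Hes1 by class shows both orders.

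**Figure D2:**
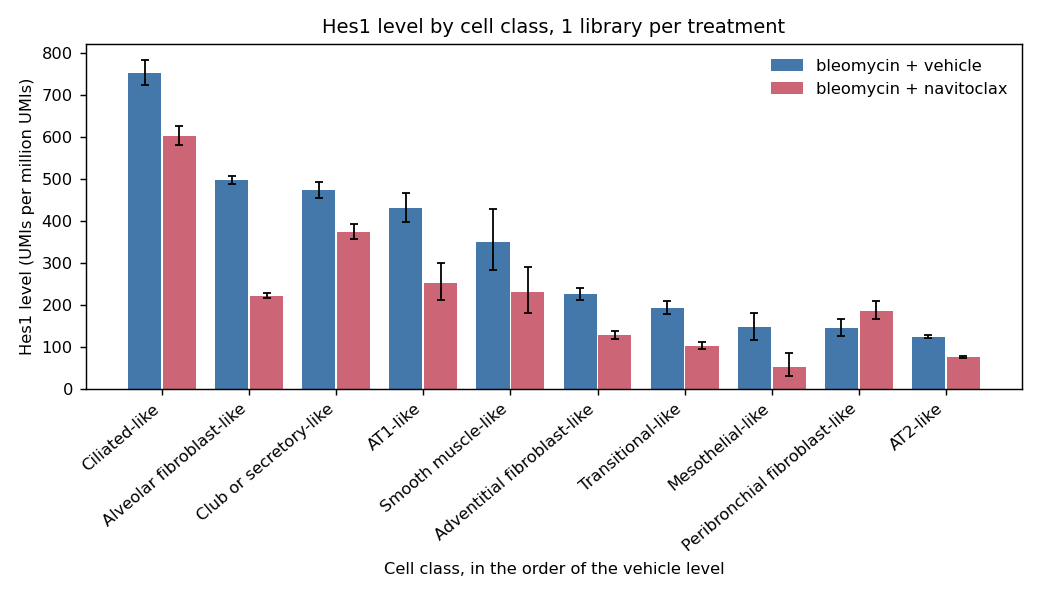
Hes1 level (CPM) in 10 cell classes in the bleomycin + vehicle (blue) and bleomycin + navitoclax (red) library, 1 library each, with exact 95% counting intervals as error bars and classes in the order of the vehicle level. The navitoclax bar is lower in 9 of 10 classes and higher in peribronchial fibroblast-like cells (186 against 144 CPM).

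Hes1 was lower in the navitoclax library in 6 of the 7 large classes and in 9 of 10 when the small classes were added, and the interval lay below 1 in each of these. In AT2-like cells it had 124 CPM (120.5 to 127) from 5955 UMIs with vehicle and 76.0 CPM from 3575 UMIs with navitoclax, a ratio of 0.615 (0.590 to 0.641). At most 0.976% of the 11983 genes compared in that class had so low a ratio or a lower one. Hes1 was chosen with this lower level known, so nothing is read from its rank here or in the other classes. At least 1 Hes1 UMI was present in 73.5% of vehicle AT2-like cells (71.7 to 75.2) and in 64.4% of navitoclax ones (62.4 to 66.4), and in 19.5% and 14.4% after thinning to 2000 UMIs, which left out 20 and 10 cells. No class lacked Hes1, so the share that free RNA alone would give could not be read from these cells. The ratio was 0.531 (0.473 to 0.596) in transitional-like cells, from 193 to 103 CPM, and 0.586 (0.483 to 0.706) in AT1-like cells. In transitional-like cells the transitional marker Sfn also went from 416 to 200 CPM, while Krt8 had 716 and 686 CPM. Whether that class held the same mix of cells in both libraries was not tested.

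Of the airway classes, ciliated-like cells differed less. Hes1 there had a ratio of 0.8004 (0.759 to 0.844), in the class with its highest level. In club or secretory-like cells the ratio was 0.791 (0.741 to 0.845), and 0.585 (0.547 to 0.624) relative to the median gene of that class. The second value is set against the shift of the median gene described for Jag1, and on that scale the ratio in AT2-like cells was 0.620. At most 8.26% of genes in ciliated-like cells and 1.12% in club or secretory-like cells had so low a ratio.

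Among the 7 large classes, alveolar fibroblast-like cells had the lowest Hes1 ratio, and the fibroblast classes differed among themselves. In pooled fibroblasts the level was 430 CPM (422 to 438) with vehicle and 202 CPM (197 to 208) with navitoclax, a ratio of 0.471 (0.455 to 0.487), and at most 0.211% of 12349 genes reached it. Alveolar fibroblast-like cells, which line the alveolar wall and hold lipid, went from 498 to 222 CPM, 2.25-fold lower, a ratio of 0.445 (0.429 to 0.462). Adventitial fibroblast-like cells, of the cuffs around vessels and airways, went from 226 to 128 CPM, a ratio of 0.566 (0.511 to 0.627). The share of pooled fibroblasts with a Hes1 UMI was 63.8% and 48.6%, and 42.4% and 24.6% after thinning, which left out 321 and 289 cells.

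Peribronchial fibroblast-like cells, marked by Hhip and Aspn, went the other way, as did the few fibrotic fibroblast-like cells. Their Hes1 level was 144 CPM (124 to 166) from 195 UMIs with vehicle and 186 CPM (166 to 208) from 312 UMIs with navitoclax, a ratio of 1.29 (1.08 to 1.55). The upper bound with vehicle and the lower bound with navitoclax both round to 166 CPM, and the intervals did not overlap. In this class 88.8% of genes had a ratio at or below that of Hes1, and the difference from the other fibroblast classes was not tested, since each library gave 1 value. Fibrotic fibroblast-like cells, 18 and 14 in number, had 167 CPM (118 to 229) with vehicle and 288 CPM (204 to 395) with navitoclax, from 38 UMIs each, a ratio of 1.72 (1.07 to 2.78).

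The Hes1 difference was also present inside clusters. All 4 AT2-like clusters with at least 100 cells in each library had a ratio below 1, from 0.594 to 0.759, and so did all 9 with at least 30 cells, from 0.574 to 0.770. Of the 6 fibroblast clusters with at least 100 cells in each library, 5 had a ratio below 1, and the exception was cluster 24, which is the peribronchial fibroblast-like class. Of the 12 with at least 30 cells, 11 had a ratio below 1, the lowest being 0.285. The alveolar fibroblast-like clusters 18 and 20, which the libraries shared most unequally, had ratios of 0.704 (0.615 to 0.803) and 0.793 (0.685 to 0.921), against 0.445 in all alveolar fibroblast-like cells. The levels in cluster 18 (613 and 431 CPM) were above those in cluster 20 (276 and 219 CPM) in both libraries.

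Hes1 can respond quickly to signals other than Notch, so genes induced by stress and by tissue dissociation were set beside it. The summed level of 27 immediate-early genes was 6393 CPM with vehicle and 5713 CPM with navitoclax in AT2-like cells, a ratio of 0.894, and 18395 and 17264 CPM in pooled fibroblasts, a ratio of 0.939. The sum of 6 heat shock genes was higher with navitoclax, 1.98-fold in AT2-like cells and 2.91-fold in pooled fibroblasts. The largest differences were those of Hspa1a and Hspa1b, for inducible chaperones. Hspa1a went from 16.3 to 504 CPM and Hspa1b from 9.57 to 312 CPM in AT2-like cells. In pooled fibroblasts Hspa1a went from 82.6 to 797 CPM, Hspa1b from 26.9 to 389 CPM and the co-chaperone gene Dnajb1 from 70.2 to 231 CPM. In AT2-like cells Zfp36, the gene of a protein that triggers mRNA decay, had 235 CPM with vehicle and 139 CPM with navitoclax, 1.68-fold lower. The part of these genes in the Hes1 difference was not tested.

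When cells were split into 5 groups by their immediate-early share, with limits common to both libraries, Hes1 was lower with navitoclax in each of the 5 groups. The ratio ran from 0.567 to 0.739 in AT2-like cells and from 0.443 to 0.521 in pooled fibroblasts. Within AT2-like cells Hes1 was higher in groups with more immediate-early transcripts, from 88.3 to 157 CPM with vehicle and from 60.7 to 96.9 CPM with navitoclax. In pooled fibroblasts it was lowest in the group with the smallest share, at 230.1 and 120 CPM, and between 420.03 and 505 CPM with vehicle and 206 and 224 CPM with navitoclax in the others. The plot of Hes1 by immediate-early share shows the levels of both libraries in each group. The heat shock genes, whose sums differed more between the libraries, were not part of this split. The part of either gene set in the Hes1 difference was not tested.

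**Figure D3:**
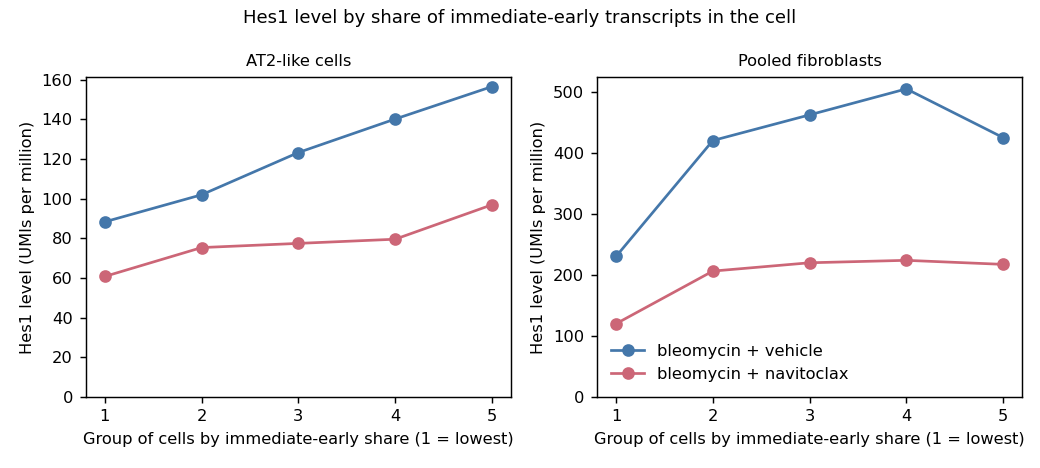
Hes1 level (CPM, vertical axis) in 5 groups of cells by the share of 27 immediate-early genes in each cell (horizontal axis, 1 = lowest), for AT2-like cells (left) and pooled fibroblasts (right), vehicle in blue and navitoclax in red. The navitoclax points lie below the vehicle points in all 10 comparisons.

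Hey1 (chr3:8663359-8667256, minus strand), a target gene of the same family, was low. It was highest in ciliated-like cells, at 20.9 CPM (16.4 to 26.3) with vehicle and 27.7 CPM (23.2 to 32.8) with navitoclax, a ratio of 1.32 (0.987 to 1.79). In alveolar fibroblast-like cells it went from 10.3 CPM (8.95 to 11.8) to 6.69 CPM (5.56 to 7.99), a ratio of 0.650 (0.516 to 0.816). As a class, alveolar fibroblast-like cells thus had lower levels of both Hes1 and Hey1 with navitoclax, while in ciliated-like cells the Hey1 interval included 1. Within alveolar fibroblast-like clusters 18 and 20, shared most unequally, the Hey1 ratios were 0.696 (0.185 to 1.85) and 1.48 (0.545 to 5.62). In cluster 19 the Hey1 ratio was 0.572 (0.346 to 0.925). AT2-like cells held 2 and 6 Hey1 UMIs in all.

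Heyl (chr4:123233556-123249875, plus strand), known from vascular mural cells, was a mesenchymal gene in these libraries. Smooth muscle-like cells had 234 CPM (180 to 298) with vehicle and 171 CPM (128 to 223) with navitoclax. Adventitial fibroblast-like cells had 80.6 and 81.6 CPM and alveolar fibroblast-like cells 62.6 and 59.0 CPM. Peribronchial fibroblast-like cells, in contrast, had 8.86 and 4.77 CPM, and AT2-like cells 0.291 and 0.191 CPM. The ratio between the libraries was 0.939 (0.875 to 1.01) in pooled fibroblasts, beside 0.471 for Hes1 in the same cells.

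Nrarp, which encodes a small ankyrin-repeat feedback inhibitor, was nearly confined to club or secretory-like cells among the large classes. Its level there was 14.9 CPM (11.6 to 18.9) with vehicle and 16.5 CPM (12.8 to 20.9) with navitoclax, from 70 and 68 UMIs, against 1.41 and 1.19 CPM in AT2-like cells. Smooth muscle-like cells had 14.6 and 15.8 CPM from 4 and 5 UMIs. The ratio was 1.10 (0.778 to 1.56) in club or secretory-like cells and 0.815 (0.575 to 1.15) relative to the median gene there. Within the clusters of that class the Nrarp ratios were 0.527 (0.269 to 1.002, which includes 1) in cluster 12 and 1.64 (1.07 to 2.52) in cluster 13. These cluster ratios were not set relative to the median gene. Nrarp lies at chr2:25180758-25183339 on the plus strand as a single exon. Its promoter window (chr2:25180508-25180807, plus strand, RefSeq, GRCm38.p6) is shown as that of the only Notch target gene here with a RefSeq entry in the table used, with CACNAG on either strand in capitals.
Nrarp: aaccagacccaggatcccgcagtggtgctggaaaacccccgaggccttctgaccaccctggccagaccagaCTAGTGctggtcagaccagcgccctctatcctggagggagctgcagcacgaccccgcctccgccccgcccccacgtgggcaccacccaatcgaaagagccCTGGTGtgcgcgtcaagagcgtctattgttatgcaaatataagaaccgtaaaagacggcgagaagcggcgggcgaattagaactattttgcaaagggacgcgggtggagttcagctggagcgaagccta
Matches lie at positions -179 and -79. The core of the RBPJ site, TGGGAA on either strand, occurs in 25.6% of all promoter windows and in 0 of the 7 windows of genes described here that have an entry. Hes1, Hey1 and Heyl have no entry.

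The share of genes past 1.5-fold gives the scale for these counts. In AT2-like cells, 3.66% of 11983 genes with at least 50 UMIs passed 1.5-fold, 2.14% higher and 1.53% lower with navitoclax, and 7 of the 10 genes described here had enough UMIs, of which Hes1 was lower and Dlk1 higher. Without the cell with most UMIs in each library only Hes1 passed. In pooled fibroblasts, 3.85% of 12349 genes passed, 2.55% higher and 1.3% lower, and 7 of the 10 genes had enough UMIs, of which only Hes1 passed. With AT2-like cells thinned to 2000 UMIs the Hes1 ratio was 0.687, short of 1.5-fold. In alveolar fibroblast-like cells, where 1.35% of 11784 genes were 1.5-fold lower, Hes1 and Hey1 passed. Hes1 was used in choosing the list, so nothing is read from these counts for it. The plot of ratios shows each gene that could be compared.

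**Figure D4:**
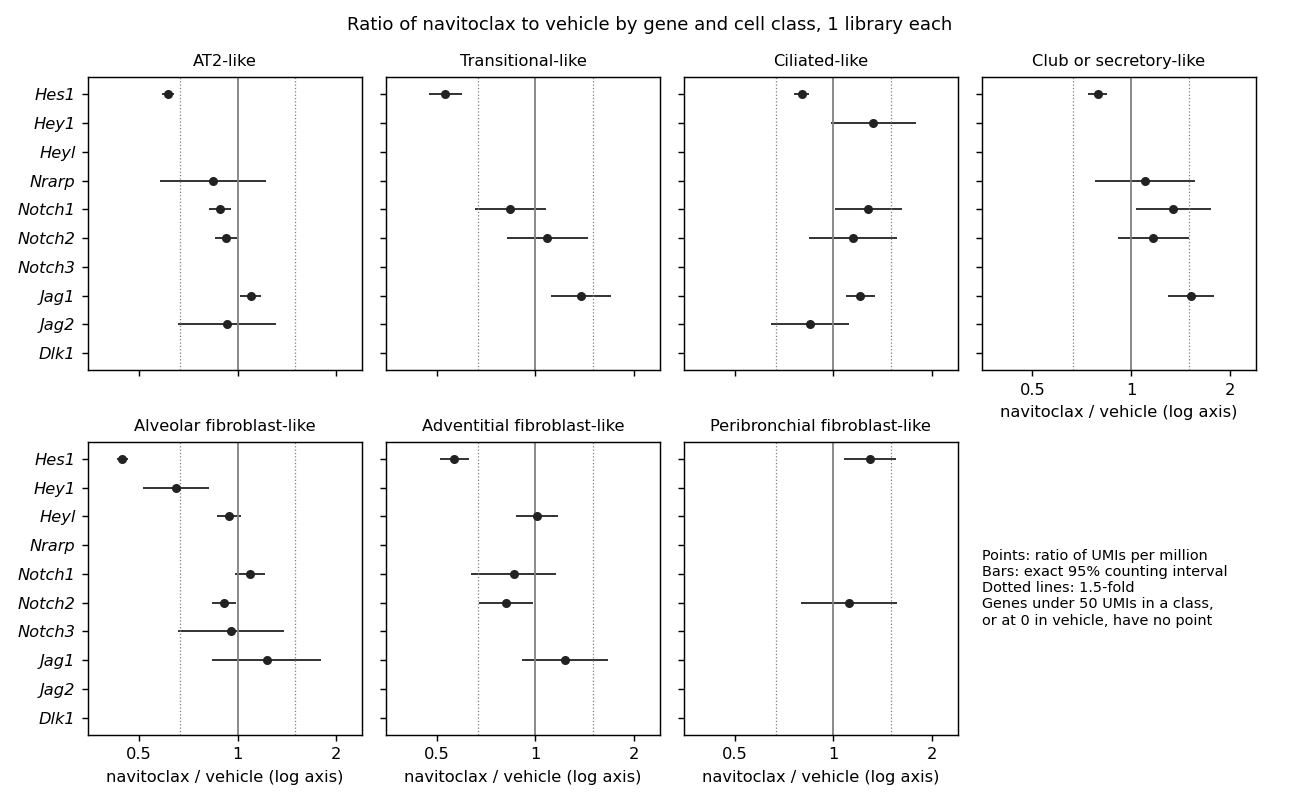
Ratio of the navitoclax to the vehicle level (log axis) of each gene in the 7 classes with at least 50 cells in each library, with exact 95% counting intervals. The solid line marks 1 and the dotted lines 1.5-fold, and genes under 50 UMIs or at 0 in vehicle have no point. Hes1 lies left of 1 in 6 panels and at 1.29 in peribronchial fibroblast-like cells, while Jag1 lies right of 1 in the 6 panels that show it.

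The wider pathway was followed through 65 further genes for ligand relatives, receptor modifiers, proteases, nuclear partners and other HES and HEY genes. In AT2-like cells 49 of them had at least 50 UMIs and 0 passed 1.5-fold in either direction, with a median log2 ratio of -0.03 beside -0.01 over all genes. In pooled fibroblasts 50 had enough UMIs, 0 were 1.5-fold higher and 1 was lower, with a median of -0.03 beside 0.00 over all genes. The lower gene was Hey2, another repressor of the HEY family, with 54 vehicle and 27 navitoclax UMIs and a ratio of 0.544 (0.330 to 0.879). Hey2 was thus the only one of these 65 genes past 1.5-fold in the 2 large compartments, at a level near 2.02 CPM with vehicle. Over all genes, 3.66% passed in AT2-like cells, and in pooled fibroblasts 2.55% were higher and 1.3% lower. Nothing is read from these small counts.

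The most abundant of these genes in AT2-like cells were Aes, Ncor1 and Psenen. Aes, which encodes a short relative of the Groucho corepressors, had 379 and 388 CPM, a ratio of 1.02 (1.00 to 1.04). The corepressor gene Ncor1 had 172 and 159 CPM, a ratio of 0.922 (0.893 to 0.951). Psenen, a subunit of the gamma-secretase that releases the intracellular domain, had 117 and 127 CPM, a ratio of 1.09 (1.05 to 1.13). In pooled fibroblasts the leading genes were Mfap5, for a microfibril protein reported to bind Notch ligands, with 956 and 918 CPM, Aes with 343 and 333 CPM, and Ncor1 with 165 and 148 CPM.

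Pathway genes were also read in the other classes and in single clusters, and Hes6, Lfng and Dner were chosen after their values were seen. Hes6, which encodes an inhibitor of HES1, had 276 CPM with vehicle and 390.1 CPM with navitoclax in ciliated-like cells, a ratio of 1.41 (1.30 to 1.53). The fringe glycosyltransferase gene Lfng had 42.4 and 36.4 CPM there, and the sheddase gene Adam17 had 15.8 and 27.7 CPM, a ratio of 1.76 (1.27 to 2.45). In that class 1 of 45 pathway genes was 1.5-fold higher and 0 were lower, beside 2.63% and 1.53% of 9718 genes. Dner, a ligand relative, was concentrated in adventitial fibroblast-like cluster 25, with 78.5 and 94.2 CPM.

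Peribronchial fibroblast-like cells had 1 pathway gene of 38 above 1.5-fold and 3 below, beside 3.8% and 3.55% of 6789 genes. The gamma-secretase gene Ncstn was higher, with 39.1 and 60.8 CPM. Rbpj, the gene of the DNA-binding partner itself, was lower, with 81.2 and 53.7 CPM and a ratio of 0.661 (0.494 to 0.881), while Hes1 was higher in the same cells. Psen2 (41 and 24 UMIs) and Ctbp2 (71 and 56 UMIs) were the other lower genes.

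The genes whose levels followed Hes1 most closely were sought over the 7 large classes in both libraries, 14 points that share libraries and depth. Among 5564 genes, Id1, which encodes an inhibitor of basic helix-loop-helix factors, had the highest Pearson correlation on the log2(CPM + 5) scale (r = 0.938). Mtus1 (0.893), 1110051M20Rik (0.888), Akip1 (0.883) and Prom1 (0.883) followed. Id1 was also lower with navitoclax, at 59.0 and 37.2 CPM in AT2-like cells (ratio 0.630, 0.594 to 0.669) and 203 and 129 CPM in pooled fibroblasts (ratio 0.636, 0.608 to 0.664). Unlike Hes1, it had a ratio above 1 in ciliated-like cells (1.13, 1.06 to 1.22) and below 1 in peribronchial fibroblast-like cells (0.803, 0.654 to 0.987). Mtus1 was at 29.0 CPM in both libraries in AT2-like cells and went from 103 to 85.5 CPM in pooled fibroblasts (ratio 0.828, 0.782 to 0.876). With the 3 small classes added, which gave 20 points and 6486 genes, the 5 genes most like Hes1 were others, namely 4430402I18Rik (0.826), Porcn (0.818), Slc25a17 (0.818), Dusp14 (0.812) and Slc35e3 (0.809). The choice of classes thus decided which genes were listed.

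For Notch3 the same search over the 7 large classes gave Epdr1 (r = 0.803), Plpp3 (0.784), Fmo2 (0.783), Synpo (0.776) and Samd4 (0.773), at a Notch3 level that never passed 4.77 CPM. With the 3 small classes added, which gave 20 points, the leading genes were Susd5 (0.977), Fabp4 (0.975), P2rx1 (0.974), Gja4 (0.972) and Gm13861 (0.972). These correlations rest on the 2 smooth muscle-like points. There Susd5 had 58.4 and 50.7 CPM and Gja4, a connexin gene of vessel walls, 47.5 and 63.3 CPM, beside 383 and 336 CPM of Notch3.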

How the data were processed

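The deposited values were raw UMI counts per gene and cell barcode, made with a 3′ Chromium kit (per the labels' protocols) and Cell Ranger 4.0.0 (per the file headers). The submitters' processing notes name mm10 as the build, and the sources used here do not give other settings. The vehicle library held 97958947 UMIs in 8784 barcodes (median 9125) and the navitoclax library 98517048 in 8064 (median 9920.5). Filtering on 500 or more genes and no more than 15% mitochondrial UMIs kept 84.2% and 79.9% of barcodes, and 226 and 227 called doublets were removed with Scrublet in scanpy 1.11.5. Free RNA was not subtracted.

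Cells of both libraries were clustered together without integration (2000 variable genes, 30 principal components, 15 neighbours, leidenalg 0.10.2, resolution 1), and epithelial and other cells were clustered again apart. A cluster was named from marker lists where at least 3 markers reached 20 CPM in each library with 10 or more of its cells and no other class had more markers among its 10 leading genes; this scoring rule was set after the data were seen. UMIs were summed per class and library. Levels carry exact Poisson, shares exact Clopper-Pearson and ratios conditional exact 95% intervals. PCR and sampling of cells and mice add error that these do not cover. Ratios were compared for genes with at least 50 UMIs over both libraries, and 1.5-fold served as a threshold of size, not a test. The interval calculation was tried on simulated Poisson counts, the model the intervals assume, so this checks the arithmetic and not how well that model describes these cells.

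The 10 genes, the pathway list (65 genes), the stress list (33 of 34 genes found) and the markers were chosen with earlier results of these data known. The text names all 10 genes in the classes described, pathway genes past 1.5-fold and the 3 most abundant in AT2-like cells and pooled fibroblasts, the 5 genes most like Hes1 and Notch3, and the 3 stress genes with the largest log2 ratios in each of those compartments. Gene positions come from GENCODE M21. Alternatives covered scaling, thinning, filters, doublets and clustering.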

Additional observations from a re-analysis of the deposited data

Results flagged for a closer look

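For Hes1, the libraries differed in opposite directions between classes. The ratio of navitoclax to vehicle was 1.29 in peribronchial fibroblast-like cells and below 1 in the other 6 large classes, each with a counting interval on its own side of 1. The difference between the classes was not tested, since each library gave 1 value per class. The summed immediate-early genes had a ratio of 0.991 in peribronchial fibroblast-like cells and 0.913 in alveolar fibroblast-like cells, and the heat shock sums had ratios of 2.66 and 2.93. The part of these genes was not tested.

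Notch1 was flagged for the same reason, with a ratio of 1.28 in ciliated-like cells and 0.884 in AT2-like cells. This difference was not tested either.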

How the results depend on the processing

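Hes1 was lower with navitoclax under all 23 alternatives in AT2-like cells and under 24 of 25 in pooled fibroblasts. In AT2-like cells the ratio of 0.615 became 0.687 with cells thinned to 2000 UMIs and 0.656 with doublets kept, 0.752 and 0.759 within clusters 1 and 4, and 0.688, 0.739 and 0.567 within groups 1, 2 and 4 of the 5 groups by immediate-early share. Another 16 alternatives moved it by less than its counting interval. In pooled fibroblasts the ratio of 0.471 became 0.502, 0.427, 0.556, 0.563 and 0.581 within clusters 19, 21, 22, 23 and 25 and was reversed within cluster 24 (1.29). It was 0.521, 0.491, 0.443 and 0.511 in groups 1, 2, 4 and 5. The splits by immediate-early share and by fibroblast cluster were chosen after seeing the data, as were the classes of 30 to 49 cells and the counts without the top cell. The cause of these differences was not tested.

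The count of genes past 1.5-fold in AT2-like cells was 2, and became 0 with thinned cells (4.21% of all genes passed), 1 without the top cell of each gene, 1 with at least 200 UMIs (1.26%) and 4 with no filter on UMIs (24.8%). In pooled fibroblasts it was 1, and became 2 with thinned cells (3.85%), 3 with no filter (26.7%) and 3 at the lower fold threshold tried (13.8%). The pathway list medians stayed within 0.1 on the log2 scale under all alternatives run. No paired analysis was possible because each group had 1 library. The transitional-like class had no cells when doublets were kept, and no navitoclax cells when each library was clustered alone, so its values depend on the clustering. Depth limits Nrarp, Jag2, Hey1 and Dlk1 most, since they held few UMIs outside 1 or 2 classes.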
